A study of Rattus norvegicus with 18 samples.

Results

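Gene expression in the motor cortex of male rats 7 days after spinal cord injury was compared with that of male Sham rats of the same day, across all genes of the day 7 count table. The members are 6 of the 18 libraries of the series, chosen by their labels: 3 injured libraries (inj, numbered 2, 3 and 4) and 3 Sham libraries (numbered 1, 3 and 1-RNA). That the injury was to the spinal cord is given by the series' title, and the labels call the groups inj and Sham. Strain, age, lesion level and lesion method are not given in the sources used here, and neither is any drug or allele. The labels give total RNA extraction with a column kit and polyadenylated RNA as the molecule sequenced. Nothing in the labels says that the libraries come from separate animals. Each p-value therefore sets the difference between the groups against the spread between these libraries, which may not be that between animals. Since 2 of the Sham libraries share the number 1 (Sham 1 and Sham 1-RNA), they may come from 1 animal.

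The lesion of this model lies in the spinal cord, away from the tissue that was sequenced. Motor cortex holds the cell bodies of the corticospinal neurons whose axons run down to the cord, together with interneurons, astrocytes, the oligodendrocyte lineage, microglia and the cells of the blood vessels. Endothelial cells form the blood-brain barrier with tight junctions and transporters, pericytes and smooth muscle cells wrap them, and microglia are the resident macrophages that carry complement, Fc receptors and a large lysosomal compartment. In bulk tissue, a lower level of a cell type's genes can come from fewer such cells or from less RNA per cell. A higher level can come from more of either, and these cannot be told apart.

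The series' design note describes an enrichment of primary neurons, whereas markers of glia and vessels were read in every library. Markers of oligodendrocytes summed to 75526 to 220313 CPM (counts scaled to a library of a fixed size) in Sham and 65063 to 82247 CPM in inj, those of astrocytes to 10998 to 11658 and 6661 to 8950.1 CPM, and those of endothelial cells to 531 to 647 and 3216 to 3974 CPM. The 3 Sham libraries held 2683105 to 3014083 counts and the 3 inj libraries 14650528 to 17013273, so depth differs with the groups and the effects of depth and of injury cannot be told apart. With the inj counts thinned to the depth of Sham, 1985 genes rose and 1584 fell, against 2276 and 1814 with all counts. CPM here are scaled by trimmed mean of M values (TMM) factors, and a count of 3, the floor used here, equals 1.09 to 1.23 CPM in Sham and 0.160 to 0.186 CPM in inj. On the first axis of a multidimensional scaling plot, which took 66.4% of the variance, the 3 Sham libraries lay at -1.03 to -0.80 and the 3 inj libraries at 0.90 to 0.99. The second axis (15.5%) set Sham 1-RNA at -0.90 apart from Sham 1 at 0.52 and Sham 3 at 0.42. Of 8408 genes with a mean of at least 10 CPM, Sham 1-RNA lay more than 2-fold above both other Sham libraries for 140 and more than 2-fold below both for 164. For Sham 1 the same counts were 10 and 38, and for Sham 3 they were 15 and 17. Oligodendrocyte RNA was among what set Sham 1-RNA apart, with Mbp at 172441, 56647 and 158073 CPM in Sham 1, Sham 1-RNA and Sham 3. List counts below are given without a single library where leaving it out moves them by over 1.5 times, except for counts of 2 or fewer that moved by 1.

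Many vessel, microglial and other membrane or lysosomal genes rose after injury, while a number of genes of RNA splicing, chromatin and the centrosome, and several interneuron genes, fell. Of 11786 genes tested with edgeR's quasi-likelihood test, 2276 rose (19.3%) and 1814 fell (15.4%) at a Benjamini-Hochberg adjusted p under 0.05, together 34.7%. The 3 inj libraries all lay above the 3 Sham libraries for 26.4% of the genes and all below for 21.9%. The log2 fold change (inj minus Sham) had a median of 1.12 among genes that rose and -0.94 among genes that fell, against 0.00 over all genes, with quartiles of -0.40 and 0.48. It was above 2 for 372 of the genes that rose and below -2 for 213 of those that fell. The split between the directions depended on scaling: with library totals in place of TMM factors, 3365 genes rose and 957 fell. Rises were then 77.9% of the calls, against 55.6%, and the median over all genes moved to 0.28. Directions below are relative to the TMM scale. For the genes named below as risen or fallen, the 3 inj libraries lay all above or all below the 3 Sham libraries, with the exceptions of Clk1, Msn, Mbp and Fth1.

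**Figure D1:**
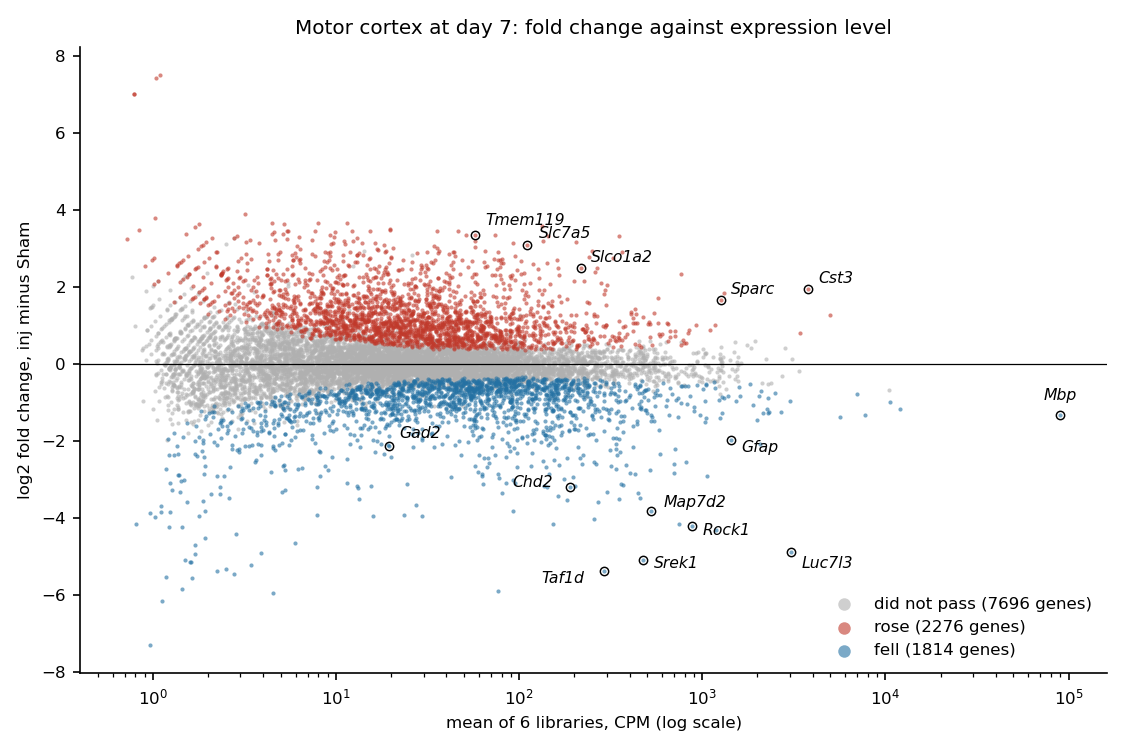
Log2 fold change, inj minus Sham, against the mean CPM of the 6 libraries on a log scale, 1 point per gene, red for the 2276 genes that rose, blue for the 1814 that fell and grey for the rest. Slc7a5 lies at 3.09 and Tmem119 at 3.34, and Luc7l3, Srek1 and Taf1d at -4.88, -5.10 and -5.38.

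Transporters and receptors of vessels and microglia were among the genes that rose with the smallest p-values. Slc7a5, the large neutral amino acid transporter of the blood-brain barrier, stood at 15.98, 27.3 and 25.8 CPM in Sham 1, Sham 1-RNA and Sham 3 and at 195, 187 and 209 CPM in inj 2, inj 3 and inj 4 (the same order of libraries is kept below). The groups lay far apart, and the log2 fold change was 3.09 ± 0.19 (± SE here and below; adjusted p = 1.94e-05, edgeR). Ifngr1, a receptor chain for interferon gamma, went from 22.5, 27.3 and 33.9 to 169, 170.2 and 192 CPM, again without overlap (log2 fold change 2.67 ± 0.17, adjusted p = 1.94e-05). Podxl, a sialomucin of the endothelial surface, went from 23.4, 18.5 and 29.6 to 172, 146 and 177 CPM (log2 fold change 2.79 ± 0.19, adjusted p = 1.94e-05). F11r, which encodes the junctional adhesion molecule JAM-A, rose from 6.15, 8.73 and 10.4 to 58.4, 63.8 and 71.3 CPM (log2 fold change 2.93 ± 0.20, adjusted p = 1.94e-05). Slco1a2, an organic anion transporter of brain capillaries, was at 66.4, 58.2 and 71.9 CPM in Sham and 395, 399 and 308 CPM in inj (log2 fold change 2.49 ± 0.17). Vsir, an immune checkpoint receptor of myeloid cells, rose by 2.30 ± 0.15 and Slc2a5, a fructose transporter found in microglia, by 2.38 ± 0.16 on the log2 scale. The paired membrane genes Tmem176a and Tmem176b rose by 2.49 and 2.14. Every one of these genes was called under all 16 settings run.

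Large folds were also seen in less abundant genes, and large rises in some of the most abundant ones. Zfp36, an RNA-binding protein that destabilises cytokine transcripts, stood at 5.33, 9.46 and 12.3 CPM in Sham and 67.4, 61.2 and 149.8 CPM in inj (log2 fold change 3.35 ± 0.42, adjusted p = 0.000261), with inj 4 the highest. Lrrc32, which presents TGF-beta on the cell surface, stood at 2.46, 2.18 and 1.54 CPM in Sham and 20.9, 15.3 and 31.3 CPM in inj (log2 fold change 3.44 ± 0.39, adjusted p = 0.000149). Among abundant genes, Cst3, the secreted cathepsin inhibitor cystatin C, went from 1662, 1374 and 1664 to 6109, 5437 and 6377 CPM (log2 fold change 1.93 ± 0.20, adjusted p = 8.67e-05). Sparc, a secreted matrix protein of endothelium and glia, went from 543, 692 and 588 to 1994, 1781 and 1951 CPM (log2 fold change 1.65 ± 0.17, adjusted p = 9.79e-05). Psap, the precursor of the lysosomal saposins, rose from 739, 715 and 878 to 1552, 1509 and 1618 CPM (log2 fold change 1.005 ± 0.16).

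**Figure D2:**
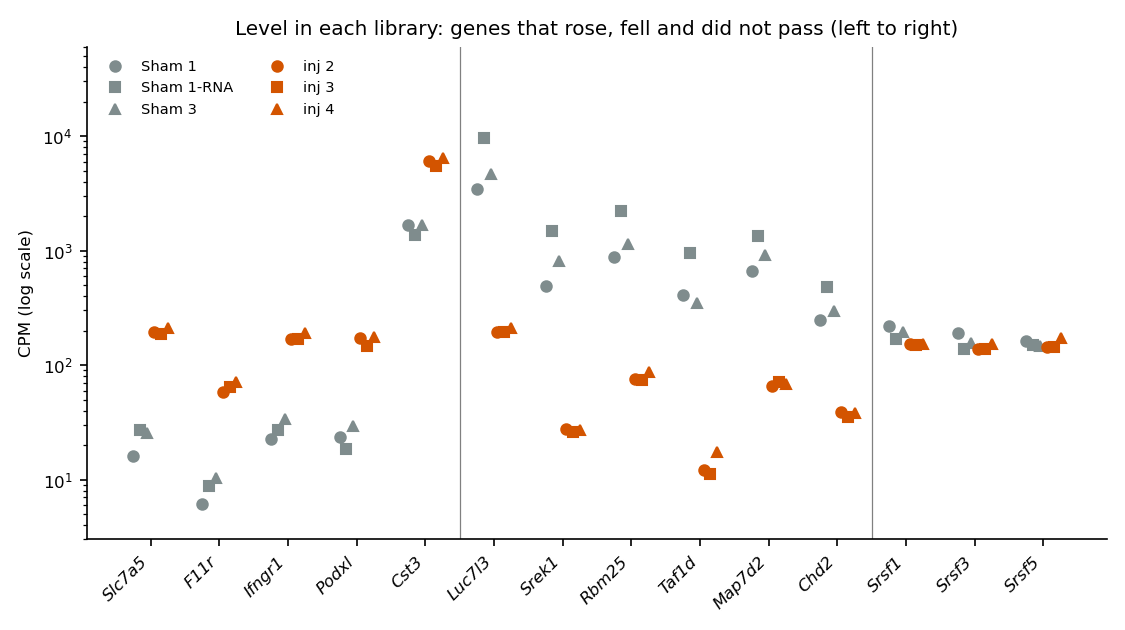
CPM on a log scale of 14 genes in each library, grey for the 3 Sham and orange for the 3 inj libraries, with genes that rose on the left, genes that fell in the middle and SR genes that did not pass on the right. The groups do not overlap for the first 11 genes, the spread is wider among the Sham libraries of the genes that fell, and Sham 1-RNA is the highest library for each of those.

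Markers of endothelial and mural cells rose together. Of 24 endothelial markers, 21 were in the table and tested and all 21 rose (median log2 fold change 2.70), and of 16 pericyte and smooth muscle markers 16 rose (median 2.51). Each list count here and below is of the members tested, and is to be read against the 19.3% of all genes that rose and the 15.4% that fell. Both counts were the same without Sham 1-RNA, and over all settings the first ran from 20 to 21 and the second stayed at 16. Tek, the angiopoietin receptor, went from 13.1, 18.9 and 25.4 to 148, 127 and 104 CPM (log2 fold change 2.72 ± 0.23, adjusted p = 3.55e-05). Abcb1a, the efflux pump P-glycoprotein, went from 31.1, 33.1 and 37.7 to 242, 211 and 155 CPM (log2 fold change 2.58 ± 0.19, adjusted p = 2.17e-05). Among mural genes, the pericyte regulator Rgs5 stood at 23.8, 25.1 and 21.5 CPM in Sham and 150.3, 160.1 and 91.3 CPM in inj. The smooth muscle myosin Myh11 stood at 56.1, 61.8 and 104 CPM in Sham and 333, 296 and 349 CPM in inj. Inj 4 was lowest of the inj libraries for Tek, Abcb1a and Rgs5 and highest for Myh11, and every inj library lay above every Sham library for all 4. Of 11 arterial markers 7 rose and of 10 venous and capillary markers 7 rose. Fibroblast and meningeal markers were mixed, with 7 of 12 higher and 1 lower (9 and 0 without Sham 1-RNA). Col1a1, a collagen of fibroblasts, was at 26.2, 66.9 and 24.6 CPM in Sham and 48.8, 45.9 and 49.7 CPM in inj and did not pass (log2 fold change 0.29 ± 0.32, adjusted p = 0.524). It rose without Sham 1-RNA (log2 fold change 0.91, adjusted p = 0.000859). Erythroid markers gave no call among 5 tested. Their summed level ran from 30.9 to 649 CPM in Sham and from 48.2 to 517 CPM in inj, and Hbb was at 112, 24.4 and 587 CPM in Sham and 361, 482 and 43.3 CPM in inj.

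**Figure D3:**
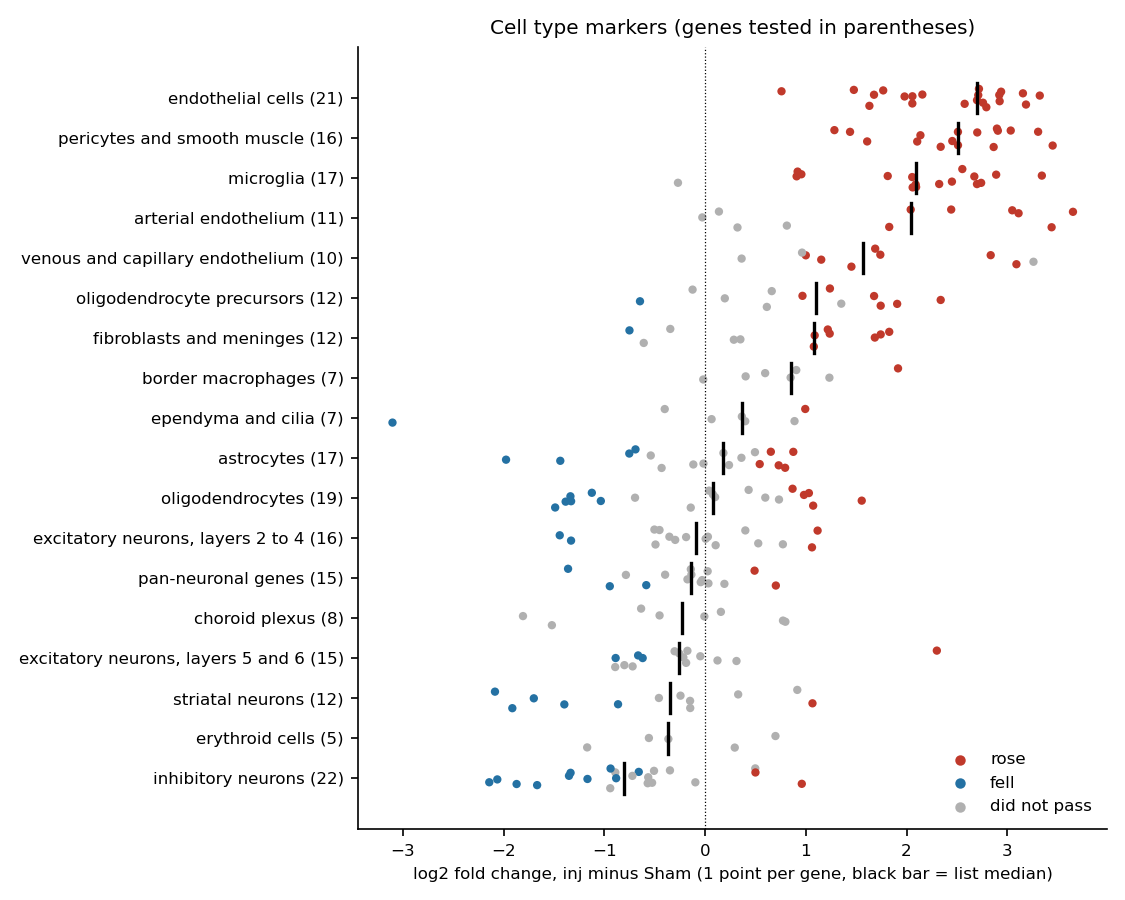
Log2 fold change, inj minus Sham, of each marker gene tested (points, red where it rose, blue where it fell, grey where it did not pass), by cell type list in order of the list median (black bar). Endothelial, mural and microglial markers lie to the right with medians of 2.70, 2.51 and 2.10, and inhibitory neuron markers to the left with a median of -0.80.

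Most of the barrier transporters and of the junction genes rose. Of 23 barrier transporters and receptors, 18 rose and 0 fell (median 1.68). Slc7a1, a cationic amino acid transporter, went from 14.3, 23.3 and 20.8 to 145, 103 and 84.97 CPM (log2 fold change 2.51 ± 0.25, adjusted p = 6.82e-05). Slc19a3, a thiamine transporter, went from 2.46, 2.91 and 2.69 to 19.3, 24.9 and 13.4 CPM (log2 fold change 2.83 ± 0.33, adjusted p = 0.000186). Of 15 junction genes, 10 rose and 0 fell (2 without Sham 1-RNA). They include claudin, occludin, cadherin and JAM genes, whose products cross the membrane. Esam, an endothelial adhesion molecule, was at 11.9, 13.8 and 19.2 CPM in Sham and 116, 95.4 and 134 CPM in inj (log2 fold change 2.94 ± 0.21). Ocln, the gene of occludin, was at 11.5, 10.55 and 15.004 CPM in Sham and 83.8, 76.1 and 57.4 CPM in inj (log2 fold change 2.55 ± 0.21). Both were clear of overlap, as was Cgnl1, a cytoplasmic junction protein (log2 fold change 1.58, named after its value was seen). The ZO proteins are scaffolds on the inner side of the junction. Tjp1, the gene of ZO-1, stood at 286, 199.7 and 331 CPM in Sham and 227, 181 and 167 CPM in inj (log2 fold change -0.51 ± 0.20, adjusted p = 0.0790). The groups overlapped at Sham 1-RNA, and it fell without Sham 1-RNA (log2 fold change -0.70, adjusted p = 0.00363) and with Sham 1 and Sham 1-RNA summed. Its relative Tjp3 had a log2 fold change of 0.06 ± 0.57.

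In the signalling lists of vessels, receptors and ligands were among the largest rises. In the VEGF and angiopoietin list 13 of 19 rose. Pdgfb, the endothelial growth factor that recruits pericytes, was at 5.74, 14.2 and 10.003 CPM in Sham and 84.5, 64.2 and 70.2 CPM in inj (log2 fold change 2.85 ± 0.26, adjusted p = 4.86e-05). Angpt2, an angiopoietin released by activated endothelium, was at 2.46, 2.91 and 2.31 CPM in Sham and 14.1, 12.5 and 14.7 CPM in inj (log2 fold change 2.42 ± 0.25, adjusted p = 9.06e-05). The growth factors Vegfb, Pdgfa and Apln did not pass (log2 fold changes -0.41, -0.06 and -0.52). Without Sham 1-RNA both Vegfb and Apln fell (log2 fold changes -0.52 and -0.73, adjusted p = 0.0328 and 0.00427), and Apln also fell with Sham 1 and Sham 1-RNA summed. In the TGF-beta and BMP list 15 of 28 rose and 2 fell. The type II receptor Tgfbr2 was at 5.33, 4.001 and 4.23 CPM in Sham and 48.8, 38.9 and 20.96 CPM in inj (log2 fold change 3.004 ± 0.37), with inj 4 the lowest of its group. Acvrl1, the endothelial ALK1 receptor, was at 7.38, 14.5 and 13.8 CPM in Sham and 82.6, 64.6 and 77.4 CPM in inj (log2 fold change 2.64 ± 0.23). The transcriptional mediators Smad2 and Smad4 had log2 fold changes of -0.15 and -0.06 and did not pass. In the Notch list 14 of 22 rose. The endothelial ligand Dll4 was at 1.64, 2.55 and 2.69 CPM in Sham and 22.5, 14.8 and 22.9 CPM in inj (log2 fold change 3.11 ± 0.32). Jag1, a ligand of endothelium and smooth muscle, was at 6.15, 5.46 and 8.85 CPM in Sham and 43.02, 35.6 and 32.7 CPM in inj (log2 fold change 2.44 ± 0.22). The member that fell was Rbpj, the nuclear partner of cleaved Notch, named after its value was seen (log2 fold change -0.52 ± 0.16, adjusted p = 0.0309). Its call was lost without Sham 1, Sham 3, inj 3 or inj 4 (adjusted p = 0.0544 to 0.113) and with library totals. The target genes Hes1 and Hes5 did not pass (log2 fold changes 0.33 and 0.27). In the Wnt list 10 of 29 rose and 3 fell. Notum, a secreted Wnt deacylase, went from 1.64, 2.18 and 1.54 to 21.3, 17.5 and 14.5 CPM (log2 fold change 3.30 ± 0.30). Reck, a Wnt7 co-receptor of brain endothelium, went from 7.79, 8.73 and 5.001 to 48.5, 44.2 and 40.97 CPM (log2 fold change 2.63 ± 0.21). The secreted Wnt amplifier Rspo2 moved the other way, from 9.42, 21.5 and 16.2 to 1.86, 2.67 and 2.35 CPM (log2 fold change -2.77 ± 0.32).

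Most genes of the vessel matrix and of leukocyte attachment rose as well. Of 24 basement membrane and collagen genes 18 rose, among them the laminin chains Lamc3 and Lama5 (log2 fold changes 2.20 and 1.95). The proteoglycan Agrn went from 25.4, 40.01 and 36.5 to 155, 118 and 122 CPM (log2 fold change 1.95 ± 0.19, adjusted p = 6.91e-05). Of 20 adhesion and chemokine genes 17 rose. Ackr3, a chemokine scavenging receptor, stood at 4.92, 5.82 and 5.39 CPM in Sham and 34.9, 27.6 and 37.4 CPM in inj (log2 fold change 2.63 ± 0.21, adjusted p = 2.72e-05). Icam2, a ligand for leukocyte integrins, stood at 4.92, 4.73 and 7.69 CPM in Sham and 29.4, 21.7 and 30.9 CPM in inj (log2 fold change 2.24). Actin and adhesion genes rose in 22 of 30 cases, led by filamins, actinin and integrins such as Itga6 (35.6, 34.6 and 32.7 CPM in Sham and 182, 152 and 130.2 CPM in inj). The 2 that fell (4 without Sham 1-RNA), Rdx and Ezr, encode radixin and ezrin, which tie actin to the membrane. Rdx went from 562, 559 and 549 to 152, 134 and 143 CPM (log2 fold change -1.96 ± 0.14, adjusted p = 1.98e-05). Ezr went from 254, 229.9 and 166 to 109.8, 80.6 and 113 CPM (log2 fold change -1.10 ± 0.19, adjusted p = 0.00186). Msn, the gene of their relative moesin, was at 52.04, 27.6 and 43.5 CPM in Sham and 77.3, 77.7 and 49.3 CPM in inj and passed as higher (log2 fold change 0.73 ± 0.25, adjusted p = 0.0440). Its groups overlapped, and the call was lost without Sham 1-RNA, Sham 3, inj 2 or inj 3 (adjusted p = 0.0932 to 0.135) and with thinned counts. Ezr and Msn were named after their values were seen.

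Microglial genes rose in 16 of 17 cases (median 2.10), and the summed level of the list went from 505 to 608 CPM to 2016 to 2332 CPM. Tmem119, a microglial surface protein, stood at 6.15, 6.91 and 17.7 CPM in Sham and 88.7, 73.2 and 151 CPM in inj (log2 fold change 3.34 ± 0.40, adjusted p = 0.000194). Gpr34, a lysophospholipid receptor, stood at 11.1, 12.002 and 21.5 CPM in Sham and 102, 110.04 and 72.6 CPM in inj (log2 fold change 2.67 ± 0.26). P2ry12, the ADP receptor of ramified microglia, stood at 13.1, 9.09 and 18.1 CPM in Sham and 87.3, 78.2 and 54.3 CPM in inj (log2 fold change 2.45 ± 0.26). Inj 4 was the highest library for Tmem119 and the lowest inj library for Gpr34 and P2ry12. The member that did not pass was Aif1, a cytosolic calcium-binding protein used to stain microglia, at 125, 109 and 105 CPM in Sham and 86.8, 84.7 and 109.7 CPM in inj (log2 fold change -0.27 ± 0.15, adjusted p = 0.191). Its groups overlapped, with inj 4 level with the lower Sham libraries. Markers of border macrophages rose in 1 of 7 cases: Cd163 passed, while Mrc1 and Lyve1 did not (log2 fold changes 0.40 and 0.60; Lyve1 rose without Sham 3 (log2 fold change 1.22, adjusted p = 0.0418)). Of 16 lymphocyte and granulocyte genes, 2 were in the table and 1 was tested: Cd4, which rat macrophages also carry, rose (5.74, 5.46 and 3.85 CPM in Sham and 38.9, 41.4 and 23.5 CPM in inj).

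Most immune receptors and lysosomal genes rose, as did the microglial markers, and the part of cell numbers in this was not tested. Of 24 complement and Fc receptor genes 21 rose and 0 fell. C3, the central complement component, was at 39.3, 39.6 and 55.8 CPM in Sham and 264, 254 and 117 CPM in inj, with inj 4 the lowest of its group (log2 fold change 2.23 ± 0.30, adjusted p = 0.000433; named after its value was seen). The inhibitory Fc receptor Fcgr2b was at 2.46, 4.001 and 3.85 CPM in Sham and 22.4, 31.9 and 19.1 CPM in inj (log2 fold change 2.82 ± 0.30, adjusted p = 0.000112). Of 34 lysosomal genes 27 rose (median 1.35; 27 without Sham 1-RNA). Cd68, a lysosomal membrane protein of phagocytes, rose by 1.69 ± 0.34 (named after its value was seen). Atp6v0d1 and Atp6v1a, subunits of the proton pump that acidifies the lysosome, did not pass. Atp6v0d1 stood at 266, 283 and 245 CPM in Sham and 257, 282 and 245 CPM in inj and Atp6v1a at 235, 326 and 232 CPM in Sham and 224, 285 and 210.1 CPM in inj, and both overlapped. Interferon response genes rose in 13 of 29 cases and 0 fell. Tap1, the peptide pump of antigen presentation, stood at 3.69, 2.91 and 2.69 CPM in Sham and 17.3, 14.7 and 19.1 CPM in inj (log2 fold change 2.46 ± 0.25, adjusted p = 8.15e-05). Ifitm3, a membrane restriction factor, stood at 12.3, 10.2 and 10.4 CPM in Sham and 28.6, 21.8 and 46.9 CPM in inj (log2 fold change 1.57 ± 0.31).

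Astrocyte and oligodendrocyte genes moved both ways within each cell type. Of 17 astrocyte markers 5 rose and 4 fell. The rises numbered 1 without Sham 1, inj 2 or inj 4 and 2 without Sham 3, and the falls 2 without inj 2 or inj 3. Gfap, the intermediate filament used to mark reactive astrocytes, stood at 2810.02, 1825 and 2227 CPM in Sham and 603, 454 and 686 CPM in inj (log2 fold change -1.98 ± 0.23, adjusted p = 0.000172). Every injured library was lower than every Sham library. S100b, a cytosolic calcium-binding protein, fell from 3128, 3216 and 3099 to 1921, 1640.2 and 2043 CPM (log2 fold change -0.75 ± 0.18, adjusted p = 0.00913). That call was lost without inj 2 or inj 3 (adjusted p = 0.0532 to 0.0558) and with library totals. Slc4a4, the bicarbonate transporter of astrocytes, fell (22.1, 41.1 and 30.8 CPM in Sham and 13.3, 10.4 and 11.1 CPM in inj; log2 fold change -1.44 ± 0.23). The water channel Aqp4 did not pass (log2 fold change 0.18 ± 0.19, adjusted p = 0.487). Glul, the gene of glutamine synthetase, did not pass either (log2 fold change -0.54 ± 0.20, adjusted p = 0.0644). It fell without Sham 1-RNA (log2 fold change -0.61, adjusted p = 0.0120) and with Sham 1 and Sham 1-RNA summed.

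Of 19 oligodendrocyte markers 5 rose and 6 fell, and without Sham 1-RNA 5 rose and 8 fell. Those that fell numbered 1 without Sham 1, Sham 3 or inj 3 and 3 without inj 2 or inj 4, and those that rose 1 to 3 without Sham 3 or any inj library. Ermn, a cytoskeletal protein of myelin, fell from 1000.2, 467 and 849 to 319.9, 276 and 229 CPM (log2 fold change -1.49 ± 0.27, adjusted p = 0.00208). Mbp, myelin basic protein, was at 47250, 44881 and 61803 CPM in inj, lower than Sham 1 and Sham 3 but overlapping Sham 1-RNA (log2 fold change -1.33 ± 0.44, adjusted p = 0.0408). Its call was lost without Sham 1, Sham 3 or any inj library (adjusted p = 0.0822 to 0.164). Cnp, a myelin enzyme, did not pass (log2 fold change -0.14 ± 0.32, adjusted p = 0.764) and fell without Sham 1-RNA (log2 fold change -0.48, adjusted p = 0.00887). Enpp6, a choline phosphodiesterase of newly formed oligodendrocytes, rose from 8.19, 6.55 and 8.08 to 24.8, 25.9 and 16.2 CPM (log2 fold change 1.56 ± 0.25, adjusted p = 0.00115). Fa2h, a membrane enzyme of myelin lipid, and Cldn11 and Gpr37, membrane proteins of oligodendrocytes, also rose (named after their values were seen). The call of Fa2h was lost without inj 2 (adjusted p = 0.0568) and that of Cldn11 without Sham 3 or any inj library (adjusted p = 0.0548 to 0.0982). That of Gpr37 was lost without Sham 3, inj 2 or inj 3 (adjusted p = 0.0570 to 0.134). Precursor markers rose in 6 of 12 cases and fell in 1. Gpr17, a receptor of committed precursors, went from 7.79, 6.91 and 4.23 to 24.5, 31.4 and 15.04 CPM (log2 fold change 1.91 ± 0.34). Vcan, a proteoglycan of precursors, went from 14.3, 10.55 and 19.2 to 48.2, 52.8 and 39.9 CPM (log2 fold change 1.68 ± 0.22). The lineage transcription factors Olig1, Olig2 and Sox10 did not pass (-0.12, 0.66 and 0.20). Without Sham 1-RNA Olig1 fell (log2 fold change -0.41, adjusted p = 0.0228), and Olig2 rose without Sham 1 (0.96, adjusted p = 0.0146) and with Sham 1 and Sham 1-RNA summed. Olig2 also rose with DESeq2, limma-voom, library totals, no filter and thinned counts.

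Several genes of inhibitory neurons fell, among them enzymes, peptides and calcium-binding proteins that define interneuron classes. Of 22 such markers 10 fell and 2 rose (median -0.80), and among 15 pan-neuronal genes 3 fell and 2 rose (median -0.14). Gad2, a glutamate decarboxylase that makes GABA, stood at 20.1, 44.7 and 30.4 CPM in Sham and 8.32, 9.55 and 3.79 CPM in inj (log2 fold change -2.14 ± 0.37, adjusted p = 0.00159). Tac1, the substance P precursor, fell from 8.19, 8.36 and 5.001 to 2.42, 2.03 and 1.44 CPM (log2 fold change -1.87 ± 0.34, adjusted p = 0.00226). Calb2, the gene of calretinin, fell from 6.15, 11.3 and 6.16 to 2.86, 3.68 and 2.83 CPM (log2 fold change -1.34 ± 0.32, adjusted p = 0.00930); this call was lost without both Sham 1-RNA and inj 4. Sst and Pvalb, which mark the largest interneuron classes, also fell (log2 fold changes -0.94 ± 0.19 and -0.88 ± 0.22, both named after their values were seen). The call of Pvalb was lost without Sham 1 or Sham 3 (adjusted p = 0.0562 to 0.0645). The vesicular GABA transporter Slc32a1, a membrane protein, stood at 17.6, 21.8 and 24.2 CPM in Sham and 32.3, 34.8 and 22.9 CPM in inj and did not pass (log2 fold change 0.50 ± 0.21, adjusted p = 0.0884). It rose without inj 4 (log2 fold change 0.65, adjusted p = 0.0223). Among the members that rose was the peptide gene Cck (184, 196 and 220.4 CPM in Sham and 338, 369 and 463 CPM in inj; log2 fold change 0.96 ± 0.16, adjusted p = 0.00154), named after its value was seen. The summed level of the list was 725 to 873 CPM in Sham and 821 to 865 CPM in inj, which overlap. Cck alone made up 184 to 220.4 CPM of the Sham sums and 338 to 463 CPM of the inj sums. The overlap therefore does not show that the other members kept their level. Of the 22 members, 12 lay all below Sham in inj and 2 all above, against 21.9% and 26.4% of all genes.

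Of the 15 pan-neuronal genes, 2 lay all above and 3 all below Sham in inj, against 26.4% and 21.9% of all genes. The levels of the rest overlapped. Rbfox3, the neuronal nuclear marker NeuN, stood at 98.3, 116 and 138 CPM in Sham and 124, 151 and 127 CPM in inj (log2 fold change 0.19 ± 0.16, adjusted p = 0.384). Snap25, a protein of the release machinery, stood at 1739, 1448 and 1951 CPM in Sham and 1309, 1512 and 1079.7 CPM in inj and did not pass (log2 fold change -0.40 ± 0.20, adjusted p = 0.149). It fell without Sham 1-RNA (log2 fold change -0.52, adjusted p = 0.0186). The neurofilament Nefl fell from 674, 615 and 716 to 346, 439 and 254 CPM (log2 fold change -0.95 ± 0.20, adjusted p = 0.00560). Among 16 markers of layers 2 to 4, 2 rose and 2 fell, and among 15 of layers 5 and 6, which hold the corticospinal neurons, 1 rose and 3 fell (1 without Sham 1, inj 2 or inj 4). Etv1, a transcription factor of layer 5, fell from 216, 193 and 213 to 106, 127 and 103 CPM (log2 fold change -0.89 ± 0.14, adjusted p = 0.000929). Bcl11b, which marks corticospinal neurons, did not pass (49.2, 88.4 and 41.2 CPM in Sham and 37.9, 40.9 and 24.1 CPM in inj; log2 fold change -0.80 ± 0.29, adjusted p = 0.0559). It fell without Sham 3 (log2 fold change -0.996, adjusted p = 0.0385). Bcl11b also fell with DESeq2, another scaling of libraries (RLE) and thinned counts. The member of that list that rose was Ctgf, which marks subplate neurons and is also made by vessels (22.9, 29.1 and 22.7 CPM in Sham and 149, 72.7 and 147 CPM in inj; log2 fold change 2.30 ± 0.28). Markers of the striatum, which lies below the cortex, fell in 5 of 12 cases, rose in 1 (3 without Sham 1-RNA) and summed to 382 to 635 CPM in Sham and 327 to 368 CPM in inj. Choroid plexus markers gave 0 rises and 0 falls of 8 (201 to 377 and 269 to 389.6 CPM). Their part in the neuronal results was not tested.

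Synaptic and channel genes were called both ways, to be read against the 19.3% of all genes that rose and the 15.4% that fell. Potassium channels rose in 16 of 42 cases and fell in 2 (6 without Sham 1-RNA). Sodium and calcium channels rose in 8 of 29 and fell in 6. Kcnj4, an inward rectifier of forebrain neurons, rose from 14.8, 23.3 and 13.1 to 38.5, 53.4 and 52.6 CPM (log2 fold change 1.49 ± 0.23, adjusted p = 0.000867). Scn2a, a sodium channel of excitatory axons, fell from 275, 500.4 and 297 to 119.8, 160.5 and 139.6 CPM (log2 fold change -1.35 ± 0.23, adjusted p = 0.00167). Cacna1a, the P/Q calcium channel of presynaptic terminals, rose from 36.1, 42.9 and 37.7 to 104, 109 and 81.1 CPM (log2 fold change 1.33 ± 0.16, adjusted p = 0.000208). Among 30 glutamate and GABA-A receptor genes 4 rose and 3 fell, both below the shares over all genes. Without Sham 1 or inj 3, 2 of the receptor genes rose and 4 fell. Grin2b, an NMDA receptor subunit, was at 186, 579 and 134 CPM in Sham and 25.8, 22.4 and 34.5 CPM in inj (log2 fold change -3.45 ± 0.49, adjusted p = 0.000577). In the vesicle release list 9 of 31 rose and 3 fell. The falls were the large active zone proteins Erc2, Pclo and Unc13b (log2 fold changes -2.93, -1.98 and -1.36). Erc2 went from 60.6, 183 and 85.8 to 13.8, 18.3 and 11.3 CPM, and Pclo from 127, 302 and 145 to 52.9, 57.4 and 35.8 CPM. The leading rise was Sv2b, a membrane protein of the vesicle (49.6, 65.1 and 47.7 CPM in Sham and 116, 179.7 and 141 CPM in inj; log2 fold change 1.43 ± 0.19). Sham 1-RNA was the highest library for Grin2b, Erc2 and Pclo, and without it 9 of the vesicle genes rose and 5 fell. Of 52 semaphorins, ephrins, netrins, slits and their receptors 23 rose and 4 fell (2 without Sham 3, inj 2 or inj 3), with Plxnb2, a semaphorin receptor, at 27.9, 39.6 and 35.8 CPM in Sham and 129, 119 and 98.04 CPM in inj. Contactins, neurexins and related adhesion genes rose in 3 of 22 cases and fell in 5, and without inj 4, 6 rose and 4 fell. In the axon growth list 9 of 34 rose and 5 fell. Rtn4r and Lingo1, which take part in the receptor complex for myelin inhibitors, rose and were named after their values were seen. Rtn4r, the Nogo receptor, went from 15.6, 20.7 and 23.5 to 40.9, 50.8 and 53.8 CPM and its partner Lingo1 from 48.3, 83.6 and 53.5 to 136, 164 and 139.9 CPM (log2 fold changes 1.28 and 1.24). Rock1, a kinase downstream of that receptor, fell from 1147, 3028 and 804 to 88.4, 86.7 and 90.6 CPM (log2 fold change -4.23 ± 0.46, adjusted p = 0.000112). The growth cone protein Gap43 did not pass (log2 fold change -0.0024 ± 0.17, adjusted p = 0.994).

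Splicing regulators were among the genes with large falls. Luc7l3, a partner of the U1 splicing particle, stood at 3464, 9544 and 4709 CPM in Sham and 194, 195 and 211 CPM in inj (log2 fold change -4.88 ± 0.39, adjusted p = 2.66e-05). Srek1, an SR-related splicing regulator, went from 495, 1472 and 807 to 27.8, 26.04 and 26.99 CPM (log2 fold change -5.10 ± 0.38, adjusted p = 2.17e-05). Rbm25, a splicing regulator that binds the U1 particle, went from 879.7, 2216 and 1143 to 76.1, 74.3 and 87.7 CPM (log2 fold change -4.15 ± 0.34, adjusted p = 2.87e-05). Taf1d, a subunit of the RNA polymerase I initiation factor, went from 406, 944 and 346 to 12.04, 11.2 and 17.3 CPM (log2 fold change -5.38 ± 0.42, adjusted p = 2.41e-05). For all 4, the inj libraries lay closer together, the Sham libraries spread over more than 2-fold, and Sham 1-RNA was the highest. Of 36 SR proteins and their kinases 21 fell and 2 rose (median -0.90), and the list summed to 12252 to 23784 CPM in Sham and 2967 to 3313 CPM in inj. Without Sham 1-RNA 23 fell.

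The SR family genes Srsf1, Srsf3 and Srsf5 did not pass. Srsf1, a founding SR splicing factor, stood at 222, 171 and 193 CPM in Sham and 152, 150.1 and 153 CPM in inj (log2 fold change -0.36 ± 0.14, adjusted p = 0.0676). It fell without Sham 1-RNA (log2 fold change -0.46, adjusted p = 0.00903) and with Sham 1 and Sham 1-RNA summed. Srsf1 also fell with DESeq2, limma-voom and another scaling of libraries (RLE). Srsf3, another SR protein, stood at 189, 137 and 157 CPM in Sham and 139, 137 and 152 CPM in inj (log2 fold change -0.18 ± 0.15, adjusted p = 0.395). Srsf5 stood at 164, 149 and 148 CPM in Sham and 144, 143 and 172 CPM in inj (log2 fold change -0.0040 ± 0.14, adjusted p = 0.988). Both members that rose, the kinase Clk1 and the SR protein Srsf6, were named after their values were seen (log2 fold changes 0.91 ± 0.27 and 0.53 ± 0.15). The call of Clk1 was lost without Sham 1-RNA, Sham 3, inj 2 or inj 4 (adjusted p = 0.0776 to 0.0982) and that of Srsf6 without Sham 1, Sham 3, inj 2 or inj 4 (adjusted p = 0.0618 to 0.0798). Core spliceosome genes fell in 14 of 35 cases and rose in 4, but fell in 7 or 8 without Sham 1, Sham 3, inj 2 or inj 3 and in 7 with library totals. The rises numbered 2 without Sham 1. Genes of hnRNP and related proteins fell in 9 of 37 cases and rose in 4, with 14 falls without Sham 1-RNA and 3 with library totals. Ptbp1, a splicing repressor of glia and vessels, was among those that rose, from 38.1, 35.6 and 42.3 to 90.2, 77.2 and 84.4 CPM (log2 fold change 1.12 ± 0.14, adjusted p = 0.000254).

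Chromatin regulators fell in 23 of 35 cases and rose in 1 (median -0.83; 24 fell without Sham 1-RNA). Chd2, a chromatin remodeller, went from 249.5, 484 and 295 to 38.99, 35.1 and 38.2 CPM (log2 fold change -3.20 ± 0.24, adjusted p = 2.28e-05). Ncor1, a corepressor, went from 872, 1685 and 1146 to 178, 180.2 and 162 CPM (log2 fold change -2.83 ± 0.24, adjusted p = 3.81e-05). Hdac5, Arid1a, Hdac2 and Ezh1 did not pass (log2 fold changes -0.05, 0.29, -0.28 and 0.14), and without Sham 1-RNA Arid1a, a subunit of a remodelling complex, rose (0.48, adjusted p = 0.0154). Outside these lists, Cep290, a protein of the base of the cilium, went from 119, 196 and 124 to 15.02, 12.97 and 14.9 CPM (log2 fold change -3.36 ± 0.21, adjusted p = 1.94e-05). Map7d2, a microtubule-associated protein of axons, fell from 662, 1353 and 918 to 65.8, 71.8 and 69.02 CPM (log2 fold change -3.83 ± 0.26, adjusted p = 1.94e-05). Nkap, a nuclear RNA-binding protein, fell from 140.1, 205 and 149.7 to 17.2, 21.99 and 21.7 CPM (log2 fold change -3.02 ± 0.19, adjusted p = 1.94e-05). Gpatch4, a nucleolar protein, was even across its Sham libraries at 361, 353 and 369 CPM and fell to 59.7, 58.6 and 81.3 CPM (log2 fold change -2.44 ± 0.17, adjusted p = 1.94e-05). Chd2, Ncor1, Cep290, Map7d2, Nkap and Gpatch4 were called under all 16 settings run.

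The genes that fell were longer in the genome. Matched by symbol to the RefSeq annotation of GRCr8 (99.0% of the genes tested), they had a median gene span of 36443 bases (quartiles 16248 and 88804). Genes that rose had a median of 21765 bases (9613 and 51095) and the others a median of 22690 (9580 and 55583). Span includes introns, and the counts are of polyadenylated RNA assigned on another build, rn6, so span is not the length that was counted. Promoters differed little. In the 250 bases before the start, held for 80.9% of the genes, the median content of G and C was 61.2% for genes that rose, 60.8% for genes that fell and 60.4% for all genes tested. The median number of CG pairs there was 15 for genes that rose, 18 for genes that fell and 16 for all genes tested. No test was made of these descriptions.

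Families of membrane and secretory proteins held many genes that rose, and families of the cytosol, nucleus and mitochondrial ribosome few. These 20 families, grouped by gene symbol, were chosen after values were seen and are a description. Of 246 solute carriers 106 rose and 11 fell (median log2 fold change 0.66), of 168 Tmem genes 81 rose and 4 fell, and of 37 CD antigens 26 rose and 1 fell. Tetraspanins rose in 14 of 18 cases, receptor tyrosine phosphatases in 13 of 18, adhesion and orphan G protein-coupled receptors in 25 of 52, and cathepsins in 11 of 11. Among proteins of the cytosol and nucleus, translation initiation factors rose in 0 and fell in 19 of 52 cases, and centrosomal Cep genes fell in 14 of 22. Kinesins fell in 12 of 26 cases, ubiquitin-specific proteases in 14 of 42 and Rab GTPases in 14 of 57. Zinc finger genes of the Zfp series rose in 8 and fell in 21 of 170 cases, both below the shares of 19.3% and 15.4% over all genes. With library totals the membrane families kept medians of 0.61 to 2.04. Solute carriers that fell numbered 5 or 6 without any 1 inj library, and Tmem genes that fell 7 without Sham 1-RNA and 1 or 2 without any other library. The Zfp genes that rose numbered 4 without Sham 1 or inj 3 and 2 without inj 2. The number of initiation factors that fell was 8 with library totals, and it was 12 without Sham 3 or inj 2. The number of Rab genes that fell was 5 with library totals, 9 without Sham 3 and 8 without inj 2. The medians of Rab, Psm, Ddx, Rbm, Zfp, Usp and Mrp genes turned from below to above 0, and all genes moved by 0.28.

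**Figure D4:**
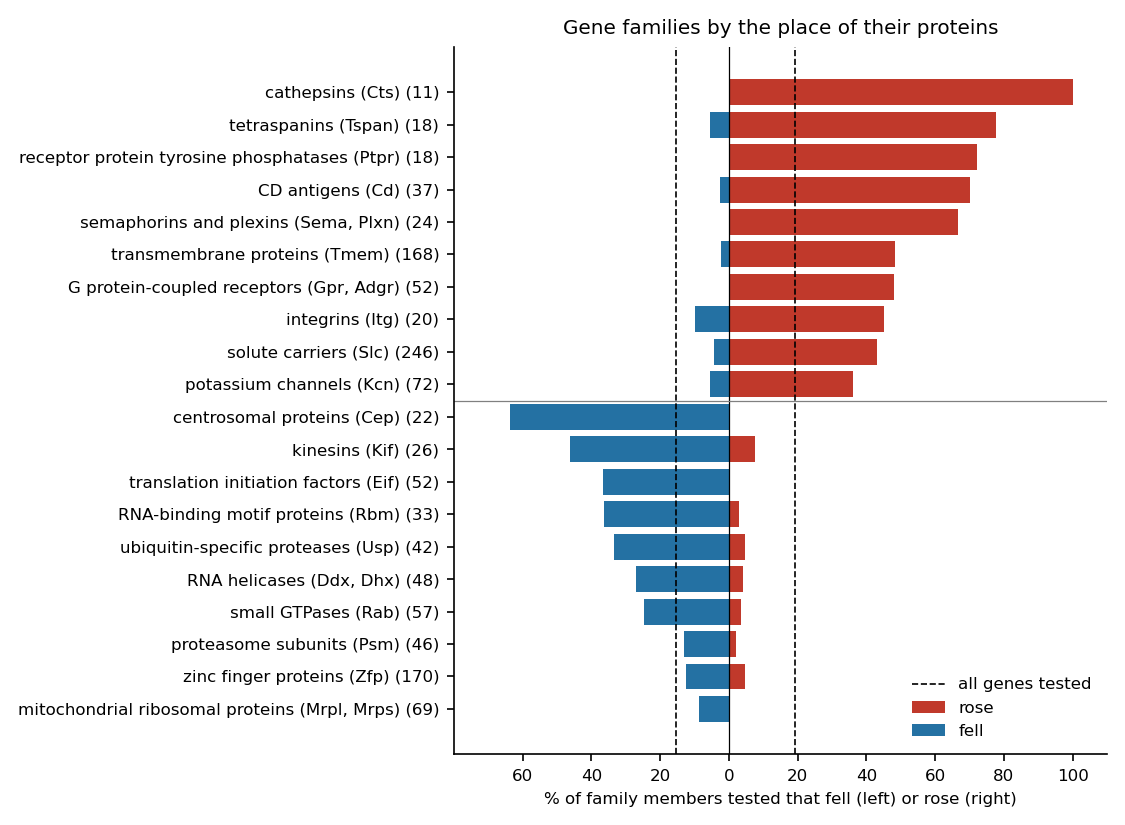
Share of the tested members of each family that rose (red, right) or fell (blue, left), in percent, with the number tested in parentheses and dashed lines at the 19.3% and 15.4% of all genes. The 10 families above the grey line, of membranes and the secretory route, rose above the background and fell below it. The 10 below, of the cytosol, nucleus and mitochondrial ribosome, rose below it.

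Immediate early genes, which neurons and vessel cells switch on within minutes of a stimulus, rose in 13 of 29 cases with a median of 0.96, and none fell. The list summed to 1166 to 1355 CPM in Sham, and to 2389, 1487 and 3150 CPM in inj 2, inj 3 and inj 4. Dusp1, a phosphatase that shuts off MAP kinases, stood at 40.2, 37.5 and 45.4 CPM in Sham and 173, 89.97 and 249.95 CPM in inj (log2 fold change 2.06 ± 0.32, adjusted p = 0.000964). Ier2, a nuclear early response protein, stood at 22.1, 15.3 and 18.1 CPM in Sham and 69.2, 49.4 and 87.2 CPM in inj (log2 fold change 1.89 ± 0.24, adjusted p = 0.000278). Btg2, an antiproliferative early gene, stood at 14.3, 15.3 and 15.004 CPM in Sham and 50.6, 38.5 and 125 CPM in inj (log2 fold change 2.26 ± 0.43, adjusted p = 0.00289). In all 3 the inj libraries lay above the Sham libraries, inj 4 was the highest and inj 3 the lowest. The call of Btg2 was lost without Sham 1-RNA (adjusted p = 0.0861) and with Sham 1 and Sham 1-RNA summed (adjusted p = 0.06599). Klf2, a flow-responsive factor of endothelium, stood at 19.7, 30.2 and 28.9 CPM in Sham and 168, 52.5 and 171 CPM in inj (log2 fold change 2.31 ± 0.42, adjusted p = 0.00212). Its call too was lost without Sham 1-RNA (adjusted p = 0.0748) and with both summed (adjusted p = 0.0570).

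Several other members of the list did not pass. Arc, a synaptic plasticity gene, was at 213, 238 and 209.7 CPM in Sham and 429, 95.6 and 295 CPM in inj, with inj 3 below every Sham library (log2 fold change 0.31 ± 0.41, adjusted p = 0.597). Nr4a1, a nuclear receptor, was at 57.4, 63.3 and 57.7 CPM in Sham and 95.9, 49.4 and 285 CPM in inj (log2 fold change 1.27 ± 0.54, adjusted p = 0.102). Egr1, a zinc finger factor, was at 68.8, 59.3 and 73.5 CPM in Sham and 97.9, 75.03 and 107 CPM in inj (log2 fold change 0.47 ± 0.17, adjusted p = 0.0501). The count of members that rose was 9 both without Sham 1-RNA and with Sham 1 and Sham 1-RNA summed, 8 without either Sham 1 or inj 4 and 19 with library totals. Without inj 3, Arc, Nr4a1 and Egr1 also rose (log2 fold changes 0.71, 1.68 and 0.60, adjusted p = 0.0274, 0.0112 and 0.0220). Egr1 rose as well with limma-voom, library totals, thinned counts, no filter and the other filter, and Nr4a1 with library totals. How long the tissue stood before RNA was made is not stated, and its part in these values was not tested.

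**Figure D5:**
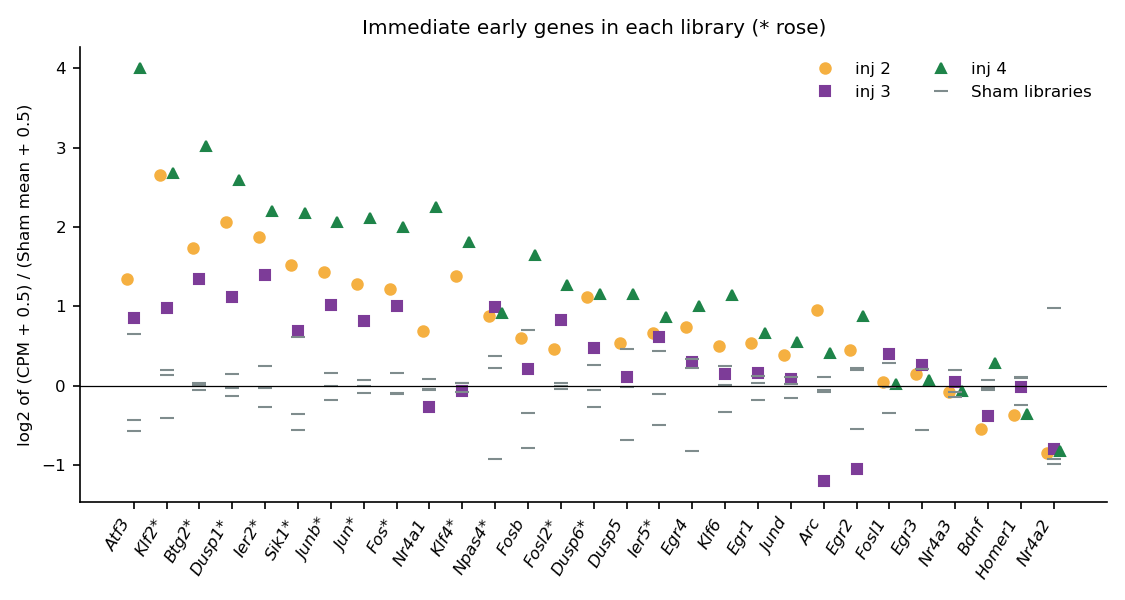
Log2 ratio of each library's CPM to the Sham mean (0.5 CPM added to both) for the 29 immediate early genes, in order of fold change, with asterisks on the 13 that rose. Inj 4 is the highest inj library for most genes, inj 3 lies below the Sham mean for Arc, Egr2, Nr4a1 and a few others, and the Sham libraries (grey dashes) lie close to 0.

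Promoters of the list were read because its members moved unevenly. RefSeq promoters on GRCr8 were held for 22 of the 29 genes, 10 of which rose. The cyclic AMP response element TGACGTCA, searched on both strands in the 250 bases before the start, was present in 4. These were Btg2, Dusp1 and Ier2, which rose, and Jund, a subunit of the AP-1 factor, which did not pass (log2 fold change 0.36 ± 0.16, adjusted p = 0.113). The element was present in 2.98% of the promoters of all genes tested, 2.84% of those of genes that rose and 2.92% of those of genes that fell. The CArG box, the binding site of serum response factor, was also present in 4, Dusp5, Egr1, Egr2 and Klf6, none of which passed, and in 1.08% of all. Dusp5, Egr2 and Klf6 are named for this match, and Klf6 rose without inj 3 (log2 fold change 0.86, adjusted p = 0.0277). Klf6 also rose with library totals, Jund with limma-voom and library totals, and Egr1 under the settings given above. The AP-1 site TGANTCA was in none of the 22 and in 4.38% of all. It was in 5.57% of the promoters of genes that rose and 3.25% of those of genes that fell, which was not tested. The CRE of Dusp1 begins 124 bases before the start, that of Ier2 66 bases and that of Btg2 201 bases. The CArG box of Egr2, a zinc finger factor that did not pass (5.33, 9.46 and 9.23 CPM in Sham and 11.2, 3.63 and 15.1 CPM in inj), begins 83 bases before the start. Each of these 4 promoters holds 1 of the motifs. They are printed 5′ to 3′ in the direction of the gene with the motif in capitals. On GRCr8, Dusp1 lies at chr10:17184603-17184852 and Ier2 at chr19:40399123-40399372, both on the plus strand. Btg2 lies at chr13:48087691-48087940 and Egr2 at chr20:21054442-21054691, both on the minus strand. A motif here is a match of letters and not a bound site.
Dusp1: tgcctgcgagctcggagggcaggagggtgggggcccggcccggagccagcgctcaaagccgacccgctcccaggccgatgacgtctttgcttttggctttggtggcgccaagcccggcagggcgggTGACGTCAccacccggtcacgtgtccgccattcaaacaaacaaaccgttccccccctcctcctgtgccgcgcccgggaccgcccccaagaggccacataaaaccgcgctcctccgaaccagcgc
Ier2: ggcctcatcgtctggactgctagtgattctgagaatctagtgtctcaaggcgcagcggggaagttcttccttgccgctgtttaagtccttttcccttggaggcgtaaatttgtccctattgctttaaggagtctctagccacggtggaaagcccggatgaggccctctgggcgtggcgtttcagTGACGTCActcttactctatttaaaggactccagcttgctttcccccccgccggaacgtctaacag
Btg2: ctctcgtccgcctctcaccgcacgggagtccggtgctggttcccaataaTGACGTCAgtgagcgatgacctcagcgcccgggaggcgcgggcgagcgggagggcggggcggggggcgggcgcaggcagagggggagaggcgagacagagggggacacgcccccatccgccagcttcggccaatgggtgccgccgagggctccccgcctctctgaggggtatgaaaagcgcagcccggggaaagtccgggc
Egr2: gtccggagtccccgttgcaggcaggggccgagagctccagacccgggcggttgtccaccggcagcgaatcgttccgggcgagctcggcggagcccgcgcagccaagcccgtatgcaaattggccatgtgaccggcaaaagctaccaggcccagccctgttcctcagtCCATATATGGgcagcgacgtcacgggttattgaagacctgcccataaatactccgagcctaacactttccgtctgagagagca

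Of 27 genes of the endoplasmic reticulum stress response 14 rose and 1 fell (median 0.64). Sdf2l1, a chaperone cofactor of the reticulum, was at 14.3, 12.4 and 11.9 CPM in Sham and 32.6, 27.002 and 36.8 CPM in inj (log2 fold change 1.32 ± 0.19, adjusted p = 0.000517). Xbp1, a transcription factor of the response, was at 24.2, 37.8 and 36.5 CPM in Sham and 67.98, 68.1 and 76.7 CPM in inj (log2 fold change 1.11 ± 0.18, adjusted p = 0.00109). Atf4, a factor of another branch, did not pass (log2 fold change 0.19 ± 0.15, adjusted p = 0.363). With library totals Atf4 rose. Of 35 cytosolic chaperone genes 6 rose and 6 fell, against 10 that fell without Sham 1-RNA and 3 in each direction without inj 2. Hspb1, a small heat shock protein, rose from 18.8, 12.002 and 20.8 to 51.9, 36.3 and 78.4 CPM (log2 fold change 1.69 ± 0.31, adjusted p = 0.00223). Hspa1a and Hspa1b, the inducible HSP70 genes, moved in opposite directions (log2 fold changes 3.33 ± 0.53 and -2.91 ± 0.51), but they are near-identical copies between which reads can be split, so neither value is certain. Glucocorticoid response genes rose in 5 of 21 cases, and in 2 or 3 when Sham 1, Sham 1-RNA, Sham 3 or inj 4 was left out. Angptl4, a secreted lipase inhibitor, led them (6.56, 4.36 and 7.31 CPM in Sham and 33.4, 29.03 and 27.1 CPM in inj). Klf9, a transcription factor that glucocorticoids induce, did not pass (log2 fold change 0.10). Hypoxia genes rose in 4 and fell in 4 of 25, and the falls numbered 1 without Sham 1 and 2 without inj 2 or inj 3. The glycolytic enzymes of that list, Aldoa, Eno1 and Pgk1, had log2 fold changes of 0.15, -0.07 and -0.01.

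Several housekeeping groups gave few calls. Glycolysis genes rose in 1 (4 without Sham 1-RNA) and fell in 1 of 21 cases, nuclear-encoded respiratory chain genes in 7 and 1 of 54, and proteasome genes in 0 and 5 of 30. Without 1 or another library the counts of respiratory chain rises fell to 2 or 3 (Sham 3 or any inj library), and of proteasome falls to 1 to 3 (Sham 1, Sham 3, inj 2 or inj 3). Without Sham 1-RNA 3 respiratory chain genes fell. The counts of rises and falls were, for cell cycle genes, 0 and 2 of 26, for antioxidant genes 4 and 2 of 29, and for the circadian clock 3 and 2 of 21. Circadian rises numbered 0 or 1 without Sham 1 or any inj library. Antioxidant rises numbered 2 without Sham 3 or inj 2, and the falls 4 without Sham 1-RNA and 0 without Sham 1, Sham 3 or inj 3. Ependymal and ciliary genes rose in 1 and fell in 1 of 7. With all 6 libraries, all of these shares of rises lie below the 19.3% of all genes. The share of proteasome genes that fell lies above the 15.4% of all genes. Of the 30 proteasome genes, 13 lay all below Sham in inj and 2 all above, against 21.9% and 26.4% of all genes. Cytosolic ribosomal protein genes rose in 0 and fell in 10 of 66 (median -0.37). Hippo and YAP target genes rose in 5 and fell in 4 of 18. The ribosomal count depends on Sham 1-RNA, which had the lowest summed level of the Sham libraries (40347 to 64927 CPM in Sham, 40159 to 47669 CPM in inj): without it 51 fell, and without Sham 1, Sham 3, inj 2 or inj 3, or with library totals, 1 fell. Cholesterol synthesis genes rose in 7 and fell in 2 of 23, with 4 rises without inj 2. The falls were 6 without Sham 1-RNA, as many as the rises, and 1 without Sham 3 or any inj library. In the iron and metal list 8 of 20 rose and 3 fell, with 5 falls without Sham 1-RNA and 1 without Sham 1, Sham 3, inj 2 or inj 3. The membrane transporters Slc39a8 and Slc40a1 rose by 2.17 and 1.71 on the log2 scale. The cytosolic ferritin chain Fth1 was at 17778, 8118 and 16441 CPM in Sham and 6549, 6407 and 8139 CPM in inj and passed as lower (log2 fold change -1.005 ± 0.31, adjusted p = 0.0319), although Sham 1-RNA overlapped inj. Its call was lost without Sham 1, Sham 3 or any inj library (adjusted p = 0.0592 to 0.130) and with library totals.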

How the data were processed

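A total of 6 libraries of rat motor cortex were compared, 3 inj and 3 Sham, grouped by their titles. The authors deposited whole-number read counts per gene for 12560 genes. HISAT2, edgeR and the build rn6 are named, without versions, per the submitters' processing notes. The counter, the annotation, the use of strand and the filter behind the table are not given in the sources used here, so reads of overlapping or antisense genes cannot be told apart. The table holds no mitochondrial genes. Genes were filtered by expression within groups, which left 11786. They were tested with edgeR 4.0.16 (R 4.3.3): TMM factors, a robust quasi-likelihood fit with a mean per group, and Benjamini-Hochberg adjustment over all genes, with 0.05 as the threshold. The script was checked on simulated counts. CPM use TMM library sizes. Alternatives used DESeq2 1.42.0, limma 3.58.1 (voom), other scales and filters, thinned inj counts, Sham 1 summed with Sham 1-RNA, and fewer libraries. No column of the table was left out. Gene spans and promoters are RefSeq's on GRCr8, matched by symbol.

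The gene lists and the rule for named genes were chosen with earlier results of these data known. The rule takes the 25 smallest adjusted p-values in each direction, the 12 most abundant and the 12 largest changes (mean of at least 10 CPM in the higher group). For each list it adds up to 6 members that passed, by size of change, and 4 that did not, by level. It also takes the fixed cell type markers, and the 10 genes furthest apart in Sham 1-RNA in each direction. Genes outside it are marked in the text as chosen after their values were seen. Some genes that the rule takes are not reported here.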

Additional observations from a re-analysis of the deposited data

How the results depend on the processing

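The 2 counts of calls kept within 1.5 times under all but 1 of the 15 alternatives: with library totals as the scale, 957 genes fell. Leaving out each library in turn gave 1705 to 2396 genes that rose and 1221 to 2243 that fell, with the most of both without Sham 1-RNA. DESeq2 gave 2291 and 2236, and limma-voom 2578 and 2380. DESeq2 also called 4 named genes that did not pass in the main fit: Glul, Olig2, Srsf1 and Bcl11b. With limma-voom, 14 such genes were called: Glul, Olig2, Srsf1, Egr1, Slc32a1, Jund, Col1a1, Arid1a, Tjp1, Vegfb, Apln, Snap25, Aif1 and Hdac2. With Sham 1 and Sham 1-RNA summed, which leaves Sham 2 libraries, 2371 rose and 2113 fell. Leaving out Sham 1-RNA and inj 4 together, an alternative chosen after seeing the data, gave 2634 and 2483. No gene called in 1 direction was called in the other under any of the 15 alternatives. None of the genes named in the text turned in direction with a call on either side. Of 154 counts of list and family members, 69 stood at 5 or more calls; 22 of these moved by over 1.5 times with library totals, 5 without Sham 1-RNA and 7 to 16 without any other library. No paired analysis was possible because inj and Sham share only the number 3. Depth is a limit: Sham libraries are shallower than inj libraries, so a change from low levels in Sham has few counts behind it, and depth and group cannot be told apart.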
